A study of Mus musculus with 6 samples.

Results

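Transcripts of 10 genes that mark tissue macrophages were examined in diaphragm muscle of mouse embryos at E14.75. The genes, taken from a fixed list and found in the files by Ensembl identifier, were Csf1r, Cd68, Adgre1, C1qa, C1qb, C1qc, Mrc1, Lyz2, Fcgr1 and Tyrobp, 10 of the 23073 genes that carried a value. RNA-Seq had been performed on 6 libraries. There were 2 of total RNA from erbB3 WT muscle, which contains Schwann cells (WT 5 and WT 6), and 2 of total RNA from erbB3 KO muscle, which lacks them (mutant 1 and mutant 2). The remaining 2, Wnt1-Ribotag 1 and 2, came from a cross of Ribotag and Wnt1-Cre mice, for which the study describes no erbB3 mutation. They held RNA recovered with ribosomes by immunoprecipitation with an antibody to hemagglutinin.

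The erbB3 mutation is constitutive, so that every cell of the mutant embryos carried it, macrophages included. In Wnt1-Ribotag embryos, Cre driven by Wnt1 adds a hemagglutinin tag to a ribosomal protein in cells of the neural crest lineage, which includes Schwann cells and does not include macrophages. Each Wnt1-Ribotag library was a pool of diaphragms from one litter, dissected before the embryos were genotyped, and only part of the litter proved to carry Cre. Whether muscle without the tag entered the pools is not clear from the study's methods. These libraries were made from far less RNA than the whole-muscle libraries. Values are RPKM, read counts scaled to the length of the gene and to the number of mapped reads, so that levels can be compared between genes. The 2 replicates of a group are separate muscle samples, and all errors below are SD with n = 2.

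Macrophages settle in most embryonic tissues, where they clear dying cells and debris, sample antibody-coated and complement-coated material, and remodel vessels and nerves. Their survival depends on CSF1R, the receptor tyrosine kinase for the growth factors CSF1 and IL-34, and much of their gene program depends on the transcription factor PU.1, encoded by Spi1. They are also a main source of C1q, the recognition molecule of the classical complement pathway, which is built from 3 kinds of chain encoded by C1qa, C1qb and C1qc.

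All 10 genes were detected in all 6 libraries, above the value that the files use for genes with no reads, with the 3 C1q genes, Tyrobp and Lyz2 the most abundant in whole muscle. Added together, they gave 196 and 167 RPKM in WT muscle, 150 and 194 RPKM in mutant muscle and 94.7 and 88.5 RPKM in the Wnt1-Ribotag libraries. Whole-muscle sums of WT and mutant thus overlapped, and both Wnt1-Ribotag sums lay below all 4 of them. In bulk RNA, fewer macrophages and less RNA per macrophage cannot be told apart.

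Library depth, recovered from the value given to genes without reads, was 100178863 to 230216660 reads, and 17205 to 20349 genes lay above that value. Replicates agreed less well in the Wnt1-Ribotag group: the median absolute log2 difference between its libraries was 0.387 over the genes tested, against 0.129 in WT and 0.187 in mutant muscle. Sox10, a Schwann cell transcription factor, was at 2.89 and 2.16 RPKM in WT, 0.00854 and 0.0178 RPKM in mutant, and 15.5 and 32.2 RPKM in Wnt1-Ribotag libraries. Erbb3 reads did not separate the genotypes, with 16.5 and 15.8 RPKM in WT and 21.5 and 11.9 RPKM in mutant muscle, so that the mutant label was checked by Sox10 and not by the targeted gene.

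The growth factor receptor and surface proteins were considered first. Csf1r lies on chromosome 18 of GRCm38 (bases 61100598 to 61132149, plus strand) and was almost level between the replicates of each whole-muscle group. It was at 15.3 and 15.3 RPKM in WT 5 and WT 6, at 12.7 and 12.8 RPKM in mutant 1 and 2, and at 8.61 and 7.28 RPKM in Wnt1-Ribotag 1 and 2. The 3 groups did not overlap, in the order WT, mutant, Wnt1-Ribotag. The gene model overlaps Hmgxb3 on the opposite strand and the microRNA gene Mir6983, and whether reads were counted by strand is not given in the sources used here.

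Adgre1, on chromosome 17 (57358691 to 57483527, plus strand), encodes the adhesion receptor F4/80, the classical surface antigen of mouse macrophages. Its values were 4.92 and 5.85 RPKM in WT, 4.50 and 6.0 RPKM in mutant, and 4.68 and 3.33 RPKM in Wnt1-Ribotag libraries. All groups therefore lay close together, and Wnt1-Ribotag 1 fell inside the range of the mutant libraries. Mrc1 encodes the mannose receptor CD206, an uptake receptor for glycoproteins, on chromosome 2 (14229392 to 14332057, plus strand), and holds the microRNA gene Mir511 within it. It was at 9.44 and 11.7 RPKM in WT, 12.2 and 13.2 RPKM in mutant, and 6.01 and 5.10 RPKM in Wnt1-Ribotag libraries. Mrc1 was the only one of the 10 genes whose mutant libraries both lay above both WT libraries.

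Fcgr1, on chromosome 3 (96282909 to 96293969, minus strand), encodes the high-affinity Fc receptor for IgG, CD64. It had the lowest RPKM of the 10 in every library, with 2.51 and 2.17 RPKM in WT, 1.62 and 2.26 RPKM in mutant, and 0.981 and 1.27 RPKM in Wnt1-Ribotag libraries. WT and mutant overlapped, and Wnt1-Ribotag was below both. Tyrobp, on chromosome 7 (30413760 to 30417585, plus strand), encodes DAP12, the ITAM-bearing adaptor through which TREM2 and other receptors signal. It was at 30.7 and 22.5 RPKM in WT, 18.3 and 31.6 RPKM in mutant, and 14.2 and 13.7 RPKM in Wnt1-Ribotag libraries. The mutant pair spanned the whole WT range, while the Wnt1-Ribotag pair was tight and below all whole-muscle values.

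Of the lysosomal genes, Cd68 encodes a heavily glycosylated membrane protein of late endosomes and lysosomes and lies on chromosome 11 (69664213 to 69666153, minus strand). It was at 8.42 and 8.58 RPKM in WT, 6.32 and 7.55 RPKM in mutant, and 3.13 and 5.81 RPKM in Wnt1-Ribotag libraries. As for Csf1r, the groups were ordered WT, mutant, Wnt1-Ribotag without overlap, although the Wnt1-Ribotag pair was far apart. Lyz2 encodes the lysozyme of myeloid cells, which cleaves bacterial cell walls, on chromosome 10 (117277331 to 117282321, minus strand). It was at 23.4 and 19.0 RPKM in WT, 17.4 and 26.3 RPKM in mutant, and 8.08 and 9.42 RPKM in Wnt1-Ribotag libraries. WT fell within the spread of the mutant pair, and Wnt1-Ribotag was below both. Its near-identical neighbor Lyz1 was listed at 1.44 to 3.26 RPKM over the 6 libraries, and reads shared by the 2 genes could have been counted for either.

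The 3 C1q genes sit side by side on the minus strand of chromosome 4, within 18.7 kb (136880129 to 136898803), with no other annotated gene between them. C1qa (136895917 to 136898803) was at 30.8 and 25.8 RPKM in WT, 27.6 and 32.5 RPKM in mutant, and 17.5 and 10.9 RPKM in Wnt1-Ribotag libraries. C1qb (136880129 to 136886187) was at 40.3 and 30.7 RPKM in WT, 24.8 and 32.0 RPKM in mutant, and 19.8 and 19.1 RPKM in Wnt1-Ribotag libraries. C1qc (136889804 to 136893065) was at 30.1 and 25.7 RPKM in WT, 24.7 and 29.5 RPKM in mutant, and 11.7 and 12.6 RPKM in Wnt1-Ribotag libraries. For each chain the WT and mutant ranges overlapped and both Wnt1-Ribotag values were lower than every whole-muscle value.

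**Figure D1:**
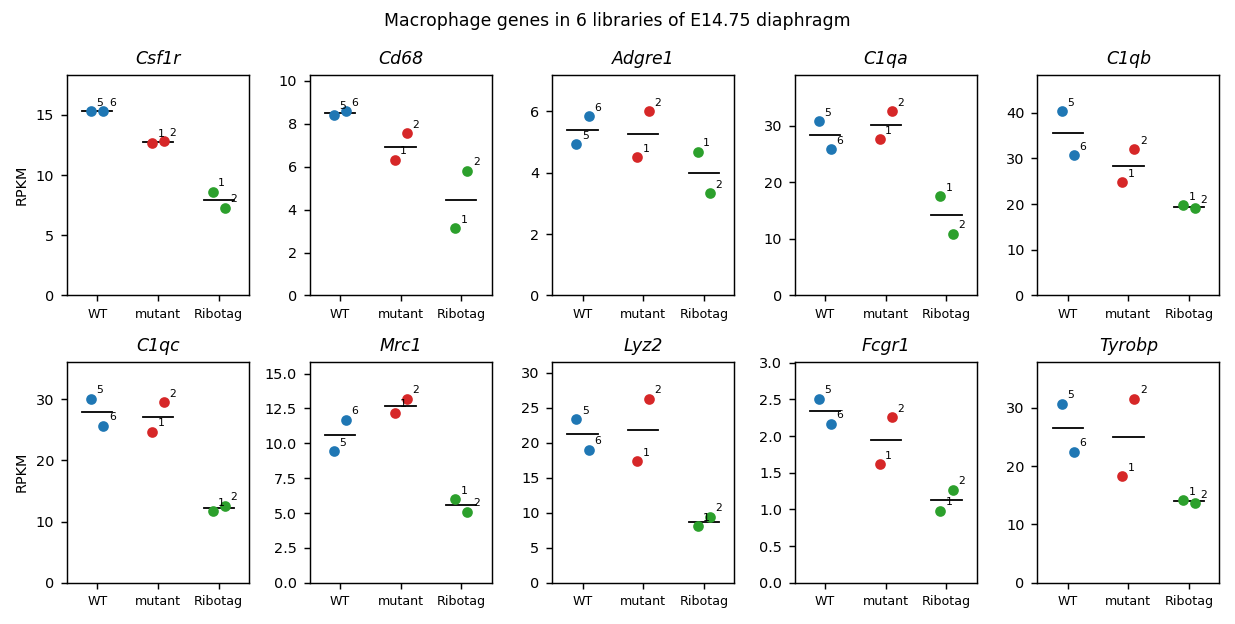
RPKM (vertical axes, each starting at 0) of the 10 macrophage genes in each of the 6 libraries, with dots for libraries, replicate numbers beside them and lines for group means. The Wnt1-Ribotag dots lie below the WT dots in all 10 panels, with Adgre1 the closest (4.68 and 3.33 against 4.92 and 5.85 RPKM), and Mrc1 is the one gene with both mutant dots above both WT dots.

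C1qb, C1qa, C1qc and Tyrobp were the 4 highest of the 10 genes per length in each library, and Fcgr1 was the lowest. Neighbors in the order often changed places between replicates: the top gene was C1qb in both WT and both Wnt1-Ribotag libraries and C1qa in both mutant libraries, while Tyrobp and C1qc exchanged ranks within each whole-muscle group. In WT muscle, the group means of C1qb, C1qa, C1qc and Tyrobp were 35.5 ± 6.78, 28.3 ± 3.52, 27.9 ± 3.11 and 26.6 ± 5.79 RPKM, followed by Lyz2 at 21.2 ± 3.07 RPKM, and neighbors in this order did not differ beyond their spread. Below them, each separate from the next, came Csf1r at 15.3 ± 0.0126, Mrc1 at 10.6 ± 1.61, Cd68 at 8.5 ± 0.112, Adgre1 at 5.38 ± 0.656 and Fcgr1 at 2.34 ± 0.24 RPKM. Taking the exon length of each gene model, the libraries held from about 312 reads (Fcgr1) to about 20342 reads (Csf1r), so that read number was not the limit on these values.

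The promoters of the neighboring genes C1qb and C1qc, and of Mrc1 and Lyz2, are shown because C1qc, Mrc1 and Lyz2 had the largest differences in one or both Wnt1-Ribotag comparisons described below. Promoter sequences were taken from RefSeq (GRCm38.p6), where 6 of the 10 genes had an entry (C1qb, C1qc, Cd68, Fcgr1, Lyz2 and Mrc1). The windows lie within the 250 bases before the RefSeq start and stop where they would enter the GENCODE gene model. Sequences run 5′ to 3′ on the strand of the gene, and capitals mark the letters GAGGAA or their reverse complement TTCCTC, the core of sites bound by PU.1.
C1qb, chr4:136886201-136886450, minus strand: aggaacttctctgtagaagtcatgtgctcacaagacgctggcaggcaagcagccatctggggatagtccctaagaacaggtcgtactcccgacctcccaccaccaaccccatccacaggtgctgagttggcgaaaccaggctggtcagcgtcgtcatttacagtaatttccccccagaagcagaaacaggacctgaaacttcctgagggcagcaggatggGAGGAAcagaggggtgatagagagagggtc
C1qc, chr4:136893066-136893164, minus strand: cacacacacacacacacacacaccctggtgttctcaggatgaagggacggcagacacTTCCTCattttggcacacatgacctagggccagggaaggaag
Mrc1, chr2:14229164-14229391, plus strand: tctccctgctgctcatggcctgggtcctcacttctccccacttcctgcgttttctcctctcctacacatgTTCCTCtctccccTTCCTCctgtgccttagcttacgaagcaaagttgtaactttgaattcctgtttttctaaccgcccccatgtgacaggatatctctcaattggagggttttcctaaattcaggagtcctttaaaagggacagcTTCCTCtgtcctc
Lyz2, chr10:117282322-117282522, minus strand: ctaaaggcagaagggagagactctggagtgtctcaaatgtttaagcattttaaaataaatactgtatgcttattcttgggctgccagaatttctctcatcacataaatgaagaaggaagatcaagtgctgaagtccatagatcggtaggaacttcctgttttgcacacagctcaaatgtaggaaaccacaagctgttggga

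Searched on both strands of the whole 250 bases, GAGGAA was present in 5 of the 6 promoters and in 23.3% of 32851 promoters in the RefSeq table. It began 30 bases before the start of C1qb, 193 bases before that of C1qc, 55 before that of Fcgr1 and 225 before that of Cd68, and Mrc1 held it at 180, 167 and 35 bases. Only the Lyz2 window lacked it. The longer form GAGGAAGT, which contains GAGGAA, was found in C1qc alone and in 2.44% of all promoters, and AGAGGAAGT, which contains both, in none of the 6 and in 0.798% of all. The TATA box letters TATAAA were in none of the 6 promoters and in 12.4% of all, GGGCGG was in 3 (Mrc1, C1qc and Cd68) and in 32.7% of all, and CCAAT was in 2 (Mrc1 and Cd68) and in 33.8% of all. A match in letters describes the sequence and does not show binding.

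To ask whether macrophage transcripts differed in muscle lacking Schwann cells, erbB3 mutant libraries were compared with WT libraries. None of the 10 genes passed the test. Transcripts of 7 genes were lower and those of 3 (C1qa, Mrc1 and Lyz2) were higher in the mutant mean, and differences on the log2(RPKM + 0.5) scale ran from -0.32 (C1qb) to 0.26 (Mrc1). Their median was -0.08, close to the median of -0.10 over all 14052 genes tested. Scaling libraries by median ratios, which brought that median to 0, turned Adgre1 and C1qc to 0.06 and 0.07. The test was limma with Benjamini-Hochberg adjustment over all genes tested, and the smallest adjusted p of the 10 was 0.440. Of the 10 genes, 0 were called, where 0.171% of all genes were, and 0 had an unadjusted p under 0.05, where 9.66% of all genes did in the lower and 2.38% in the higher direction.

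Csf1r and Cd68 had both mutant libraries below both WT libraries, and Mrc1 had both above, so that 2 of 10 genes were lower without overlap and 1 was higher. Among all genes these shares were 37.4% and 12.7%. Csf1r was at 83.1% of its WT mean (log2 difference -0.26, SE 0.13, 95% interval -0.55 to 0.04). Cd68 was at 81.6% of its WT mean, a log2 difference of -0.28 (SE 0.15, 95% interval -0.62 to 0.06, limma adjusted p = 0.451). Mrc1 was at 120% of the WT mean, a log2 difference of 0.26 with an interval of -0.10 to 0.61 and a limma adjusted p of 0.480.

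For the other genes the intervals bounded the size of any difference. For Adgre1, C1qa, C1qc and Lyz2, log2 differences were -0.04, 0.08, -0.04 and 0.02, and their 95% intervals together spanned -0.46 to 0.50. Intervals reached further below 0 for C1qb (-0.74 to 0.10), Fcgr1 (-0.65 to 0.20) and Tyrobp (-0.72 to 0.47), and that of Tyrobp was the widest of the 10. Leaving out mutant 1 moved the median of the 10 genes to 0.12, and leaving out mutant 2 moved it to -0.27. Mutant 2 was above mutant 1 for all 10 genes, by up to 0.77 on the log2 scale (Tyrobp).

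Transcripts of the liver, a tissue next to the diaphragm, were also measured. A list of 10 liver genes summed to 532 and 164 RPKM in WT, 21.4 and 12.9 RPKM in mutant, and 309 and 210 RPKM in Wnt1-Ribotag libraries. In mutant against WT muscle, limma called 3 of these 10 lower, beside the 0.171% of all genes called. The liver carries its own macrophages, and 5 of 8 genes listed for them were at low levels in every library. Clec4f was at 0.0759 and 0.0245 RPKM in WT and 0.00612 and 0.00175 RPKM in mutant muscle, and Vsig4 was at no more than 0.0303 RPKM. Cd5l was at 0.360 and 0.152 RPKM in WT, 0.118 and 0.0579 RPKM in mutant, and 0.574 and 0.168 RPKM in Wnt1-Ribotag libraries. Of the 8 genes, 5 were lower in mutant than in WT muscle without overlap (Clec4f, Cd5l, Clec1b, Spic and Fabp7), and Vsig4, Slc40a1 and Hmox1 overlapped, at 138%, 103% and 92.2% of the WT mean. Of the 3 high enough to be tested, 1 was lower without overlap, near the 37.4% of all genes tested. All but Slc40a1, Hmox1 and Fabp7 were too low to be tested, and Clec4f had reads in only 3 of the 6 libraries. The whole list of 8 liver macrophage genes summed to 34.4 and 33.3 RPKM in WT, 24.6 and 33.2 RPKM in mutant, and 73.5 and 157 RPKM in Wnt1-Ribotag libraries, most of it from Slc40a1, Hmox1 and Fabp7, and Fabp7 is also a Schwann cell gene. Of its 3 genes high enough to be tested, 1 (Fabp7) was called lower in mutant muscle, beside the same 0.171%. A list of 7 monocyte genes summed to 228 and 241 RPKM in WT, 183 and 152 RPKM in mutant, and 151 and 122 RPKM in Wnt1-Ribotag libraries. Neutrophil genes, some of which macrophages share, summed to 16.7 and 10.3 RPKM in WT, to 1.53 and 16.3 RPKM in mutant muscle and to 5.73 and 20.1 RPKM in Wnt1-Ribotag libraries. The library with the lower neutrophil sum had the lower macrophage sum in the WT and mutant pairs and the higher one in the Wnt1-Ribotag pair. Erythroid genes summed to 14600 and 7430 RPKM in WT and 11400 and 9120 RPKM in mutant muscle. The part of these cells in the macrophage values was not tested.

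Next, the ribosome-bound RNA of Wnt1-Ribotag muscle was compared with total RNA of WT muscle. No erbB3 mutation is described for either, and the preparation differs between them. All 10 macrophage genes were lower in Wnt1-Ribotag libraries, with no overlap between groups for any of them, against 31.0% of all genes that were lower without overlap. Wnt1-Ribotag means were 41.2% (Lyz2) to 74.4% (Adgre1) of the WT means. The median log2 difference of the 10 genes was -0.90, and that of all 14418 genes tested was -0.05. An unadjusted p under 0.05 was reached by 9 of the 10 genes, all but Adgre1, and by 11.3% of all genes in the lower direction. After adjustment over all genes, limma called 0 of the 10, where it called 0.00694% of all genes.

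The largest differences were those of Lyz2 and C1qc. Lyz2 was at 21.2 ± 3.07 RPKM in WT and 8.75 ± 0.944 RPKM in Wnt1-Ribotag libraries, a log2 difference of -1.23 (SE 0.20, 95% interval -1.73 to -0.73, limma adjusted p = 0.150). C1qc had a log2 difference of -1.17 (SE 0.17, interval -1.61 to -0.72, limma adjusted p = 0.148) and was at 43.5% of its WT mean. C1qa and C1qb, the other chains of the same complex, were at 50.3% and 54.7% of WT, with log2 differences of -1.0 (interval -1.69 to -0.31) and -0.84 (-1.34 to -0.34). The growth factor receptor gene Csf1r was at 51.8% of WT (log2 difference -0.91, interval -1.36 to -0.46, limma adjusted p = 0.170).

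The remaining genes lay in the same range. Mrc1, Tyrobp and Cd68 were at 52.5%, 52.4% and 52.6% of WT, and Fcgr1 was at 48.0%. Adgre1 stood apart with a log2 difference of -0.40 and an interval of -1.01 to 0.21, which includes 0. Among these, Cd68 had the widest interval (-1.69 to -0.13), and its Wnt1-Ribotag values differed from each other by 0.8 on the log2 scale. The calls changed with the libraries fitted. Without Wnt1-Ribotag 1 limma called 10 of the 10 genes and without Wnt1-Ribotag 2 it called 9, but 4482 and 5965 of all genes were then called too, since the lone library was taken to vary like the WT pair. With all 6 libraries in the fit, C1qc was among 138 genes called of the 14418 (limma adjusted p = 0.0414).

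**Figure D2:**
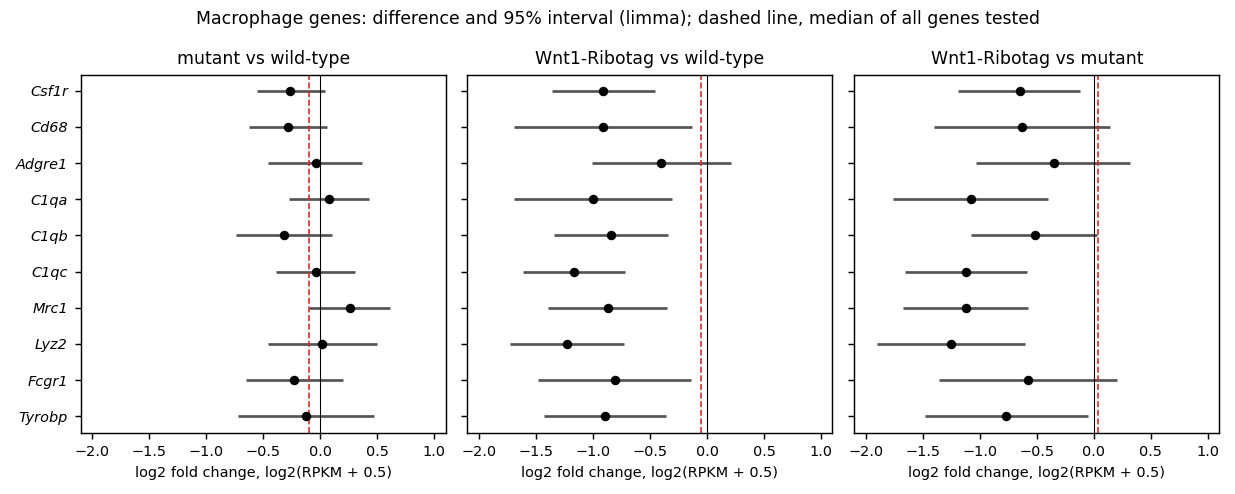
Log2 difference of each macrophage gene on the log2(RPKM + 0.5) scale (horizontal axis) in the 3 comparisons, with dots for estimates, bars for 95% intervals from limma and dashed lines for the median of all genes tested. Dots scatter around the dashed line (-0.10) for mutant against WT, and all 10 lie left of it in both Wnt1-Ribotag panels, where the medians of all genes are -0.05 and 0.04.

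The Wnt1-Ribotag and mutant libraries were also compared, although the erbB3 mutation, described for the latter alone, and the preparation cannot be told apart. This comparison shares libraries with the former 2 and is not independent of them. All 10 genes were lower in Wnt1-Ribotag libraries, 9 of them without overlap, where 24.4% of all genes were lower without overlap. Adgre1 was the exception. The median log2 difference was -0.71, against 0.04 over all 14325 genes tested. Of the 10 genes, 6 had an unadjusted p under 0.05, against 7.46% of all genes in this direction, and limma called 0 after adjustment, against 1.19% of all genes.

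Lyz2, Mrc1, C1qc and C1qa had the largest differences from mutant muscle. Lyz2 was at 40.0% of the mutant mean (log2 difference -1.25, interval -1.90 to -0.60, limma adjusted p = 0.101). Mrc1 was at 43.8% (log2 difference -1.12, interval -1.67 to -0.58, limma adjusted p = 0.0851), and C1qc at 44.7% (log2 difference -1.12, interval -1.66 to -0.59, limma adjusted p = 0.0803). C1qa was at 47.4% of the mutant mean, with a log2 difference of -1.08 and a limma adjusted p of 0.135. The other 6 genes had log2 differences between -0.77 (Tyrobp) and -0.35 (Adgre1). With all 6 libraries in the fit, Lyz2, Mrc1 and C1qc were among 692 genes called of the 14325, with limma adjusted p from 0.0263 to 0.0397.

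Genes of other cell types of muscle were measured beside the macrophage genes. Endothelial genes summed to 65.4 and 70.5 RPKM in WT and to 51.6 and 46.6 RPKM in Wnt1-Ribotag libraries, and fibroblast genes to 2880 and 2830 RPKM and to 2040 and 2140 RPKM. Median log2 differences from WT were -0.41 over 10 endothelial, -0.77 over 8 fibroblast, -0.79 over 10 erythroid and 0.10 over 10 skeletal muscle genes. Schwann cell genes, the marked lineage, summed to 66.7 and 74.9 RPKM in WT and to 225 and 587 RPKM in Wnt1-Ribotag libraries, with a median log2 difference of 2.69 over 10 genes. The macrophage median of -0.90 was thus below those of the endothelial, fibroblast, erythroid and muscle lists, and whether it differs from any of them was not tested. Whether macrophage RNA reached the immunoprecipitate with or without tagged ribosomes was not tested.

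Ratios between macrophage genes within a library do not depend on how much macrophage RNA it held, where macrophages are their only source. The C1q chains made up 48.1% to 51.8% of the summed RPKM of the 10 genes in all 6 libraries. C1qb exceeded C1qa in WT muscle, at ratios of 1.31 and 1.19, and was below it in mutant muscle, at 0.898 and 0.986. In Wnt1-Ribotag libraries the ratio was 1.13 and 1.75, so that this group did not agree within itself. The C1qc to C1qa ratio was 0.976 and 0.994 in WT, 0.895 and 0.910 in mutant, and 0.667 and 1.15 in Wnt1-Ribotag libraries.

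The uptake receptor gene Mrc1 stood higher against 2 other surface genes in mutant than in WT muscle. Its ratio to Csf1r was 0.616 and 0.765 in WT, 0.962 and 1.03 in mutant, and 0.699 and 0.701 in Wnt1-Ribotag libraries. Its ratio to Adgre1 was 1.92 and 2.00 in WT, 2.71 and 2.19 in mutant, and 1.28 and 1.53 in Wnt1-Ribotag libraries, so that the 3 groups did not overlap. These ratios were described after the values were seen, and their differences were not tested.

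**Figure D3:**
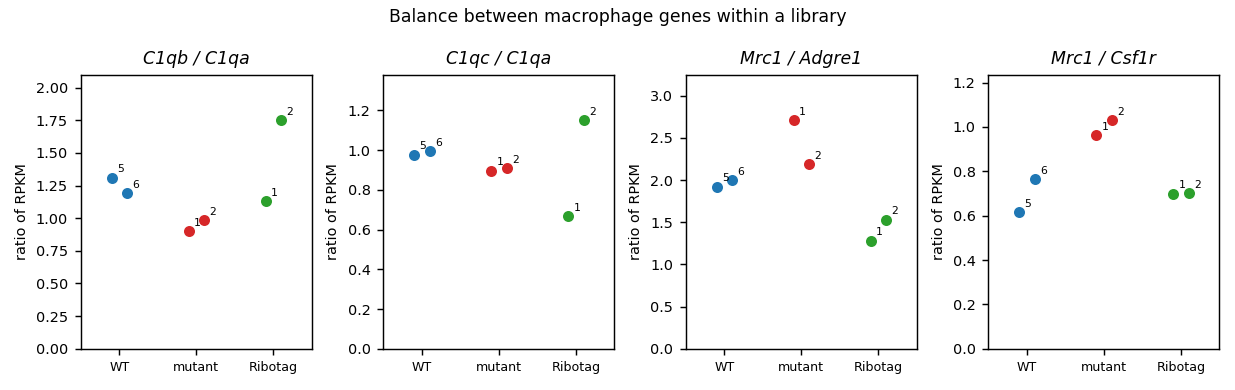
Ratios of RPKM between pairs of macrophage genes within each library (vertical axes, starting at 0), with dots for libraries and replicate numbers beside them. Mrc1 to Csf1r is 0.962 and 1.03 in mutant muscle and no more than 0.765 in the other 4 libraries, and the C1q ratios of the Wnt1-Ribotag libraries are far apart.

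A wider set of 90 macrophage genes, fixed in 8 groups by role, was examined next, of which 87 were found by symbol in the files. In the mutant to WT comparison 68 were tested, 51 lower and 17 higher, where 67.0% of all genes were lower, and limma called 0. Their median log2 difference was -0.17, and an unadjusted p under 0.05 was reached by 10 lower and 1 higher gene, against 9.66% and 2.38% of all genes. Against WT, Wnt1-Ribotag libraries had 54 lower and 15 higher of 69 tested, where 54.4% of all genes were lower, with a median of -0.37 and 0 called. At an unadjusted p under 0.05, 13 genes were lower and 0 higher, against 11.3% and 8.19% of all genes. Against mutant muscle, 43 of 66 were lower and 23 higher, where 47.0% of all genes were lower, with a median of -0.24 and 0 called. Here 7 genes were lower and 3 higher at an unadjusted p under 0.05, against 7.46% and 11.8% of all genes. The wider set thus sat between the 10 genes and all genes in both Wnt1-Ribotag comparisons.

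None of the 4 tested ligand and receptor genes of the CSF family passed the test. Csf1, which encodes the main ligand of CSF1R, was at 7.45 and 7.62 RPKM in WT, 6.94 and 5.50 RPKM in mutant, and 5.67 and 6.31 RPKM in Wnt1-Ribotag libraries. Its log2 difference from WT was -0.27 in mutant (limma adjusted p = 0.478) and -0.31 in Wnt1-Ribotag libraries (0.390). The other ligand gene, Il34, was at 0.285 to 0.390 RPKM in whole muscle and at 0.00259 and 0.837 RPKM in Wnt1-Ribotag libraries, too low to be tested. Csf2ra, a receptor subunit for GM-CSF, had values of 7.06 to 12 RPKM with all groups overlapping, and Csf2rb, the shared signaling subunit, had values of 0.765 to 1.30 RPKM.

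Of the transcription factors, Spi1 was at 3.26 and 2.41 RPKM in WT, 2.30 and 2.55 RPKM in mutant, and 1.97 and 1.86 RPKM in Wnt1-Ribotag libraries, with a log2 difference of -0.45 (interval -1.09 to 0.18) between the last and WT. Maf, also expressed outside macrophages, was at 37.1 and 46.0 RPKM in WT and at 27.5 and 25 RPKM in Wnt1-Ribotag libraries. Cebpb was at 3.98 and 4.27 RPKM in WT, 5.55 and 4.82 RPKM in mutant, and 2.84 and 3.61 RPKM in Wnt1-Ribotag libraries. Id3, widely expressed, was at 62.4 to 86.2 RPKM in the 6 libraries. None of the 4 passed the test in any comparison.

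The Fc receptor and ITAM group held 11 tested genes, of which 10 were lower in Wnt1-Ribotag than in WT libraries, with a median log2 difference of -0.54. Fcer1g, which encodes the adaptor that pairs with the Fc receptor of Fcgr1, was the one that was not lower. It was at 13.9 and 14.3 RPKM in WT, 12.9 and 18.1 RPKM in mutant, and 13.6 and 23.8 RPKM in Wnt1-Ribotag libraries, a log2 difference from WT of 0.34 (interval -0.41 to 1.09). Fcgr3, a low-affinity Fc receptor gene, was at 10.2 and 8.86 RPKM in WT and 6.07 and 6.67 RPKM in Wnt1-Ribotag libraries. Trem2, a lipid-sensing receptor that signals through DAP12, was at 7.99 and 7.41 RPKM in WT and 6.73 and 5.28 RPKM in Wnt1-Ribotag libraries.

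Among uptake receptors, Cd36, the fatty acid transporter that muscle and endothelium also express, was at 12 and 13.3 RPKM in WT and 22.1 and 20.3 RPKM in mutant muscle. It had the largest higher difference of the wider set in that comparison (log2 difference 0.72, interval 0.41 to 1.03), at a limma adjusted p of 0.111. The largest lower differences, named after their values were seen, were those of C3, a complement gene that liver also expresses, at -1.87 (interval -2.76 to -0.98, limma adjusted p = 0.137), and of Runx1, a transcription factor gene of blood cells, at -0.94 (interval -1.41 to -0.47, limma adjusted p = 0.152). Lyve1, the hyaluronan receptor of a subset of resident macrophages and of lymphatic endothelium, was at 10.7 and 11.9 RPKM in WT, 16.2 and 12.8 RPKM in mutant, and 8.17 and 7.53 RPKM in Wnt1-Ribotag libraries. Its order of groups was that of Mrc1, mutant above WT above Wnt1-Ribotag, and its log2 difference of mutant from WT was 0.34 (limma adjusted p = 0.424). Stab1, which encodes a scavenger receptor of macrophages and sinusoidal endothelium, had group means of 14.0 ± 0.366 RPKM in WT, 12.4 ± 3.37 RPKM in mutant and 11.2 RPKM in Wnt1-Ribotag libraries.

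Leukocyte surface genes included Ptprc, which encodes the pan-leukocyte antigen CD45 and was at 0.741 and 0.846 RPKM in WT, 0.731 and 0.772 RPKM in mutant, and 0.502 and 0.490 RPKM in Wnt1-Ribotag libraries. Laptm5, a lysosomal membrane protein gene of blood cells, did not follow the 10 macrophage genes, at 15.6 and 13.2 RPKM in WT, 11.7 and 9.96 RPKM in mutant, and 28.4 and 14.2 RPKM in Wnt1-Ribotag libraries. Cx3cr1, the fractalkine receptor gene, was at 12.6 and 11.8 RPKM in WT, 9.77 and 9.34 RPKM in mutant, and 11.7 and 6.41 RPKM in Wnt1-Ribotag libraries. Sirpa, which neural cells also express, was at 12 and 9.84 RPKM in WT, 8.58 and 6.75 RPKM in mutant, and 10.9 and 11.0 RPKM in Wnt1-Ribotag libraries. Against WT, mutant values of Laptm5, Cx3cr1 and Sirpa were lower without overlap, as were those of 37.4% of all genes. The log2 differences of these genes were -0.39, -0.33 and -0.49, with limma adjusted p of 0.393, 0.399 and 0.378. Of the 11 genes of this group tested, 8 were lower and 3 higher in mutant muscle, and 7 were lower without overlap. Limma gave 5 an unadjusted p under 0.05 in the lower and 0 in the higher direction, against 9.66% and 2.38% of all genes. After adjustment it called 0.

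Of 8 tested genes of lysosomes and antigen presentation, 7 were lower in Wnt1-Ribotag than in WT libraries, with a median log2 difference of -0.44 and 0 called. Ctsd and Ctsb, which encode the proteases cathepsin D and cathepsin B of most cells, were lower without overlap in Wnt1-Ribotag libraries, at 52.2 and 61.9 RPKM against 98.0 and 92.2 RPKM in WT for Ctsd, and at 49.5 and 50 RPKM against 69.6 and 71.2 RPKM for Ctsb. As given above, 31.0% of all genes were lower without overlap in this comparison. The log2 differences of Ctsd and Ctsb were -0.74 and -0.50 (limma adjusted p = 0.178 and 0.205). Lamp1, a lysosomal membrane protein gene, was at 87.5 and 104 RPKM against 97.6 and 97.0 RPKM, a log2 difference of -0.03.

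Other genes of resident macrophages were lower throughout in the Wnt1-Ribotag mean, 10 of 10 tested, with a median log2 difference from WT of -0.51. Tmem119 was at 26.9 and 30.2 RPKM in WT, 23.5 and 19.2 RPKM in mutant, and 19.7 and 10.3 RPKM in Wnt1-Ribotag libraries. Its level was above that of Csf1r in every library, and which cells gave its reads was not tested. Pf4, a chemokine gene of megakaryocytes and some macrophages, was at 12.3 and 14.3 RPKM in WT and at 12.7 and 4.82 RPKM in Wnt1-Ribotag libraries, so that only one of the latter was low. Gas6, a bridging ligand for dying cells, was at 26.7 to 40.2 RPKM with overlap between whole-muscle groups. Of the chemokine and complement genes, Cfp, which encodes properdin, was at 3.47 and 3.56 RPKM in WT and 4.22 and 5.73 RPKM in Wnt1-Ribotag libraries, higher without overlap, as were 23.3% of all genes. Ccl2 and Ccl9, chemokine genes, were at 1.37 to 3.48 and 1.48 to 3.04 RPKM with overlap between all groups.

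**Figure D4:**
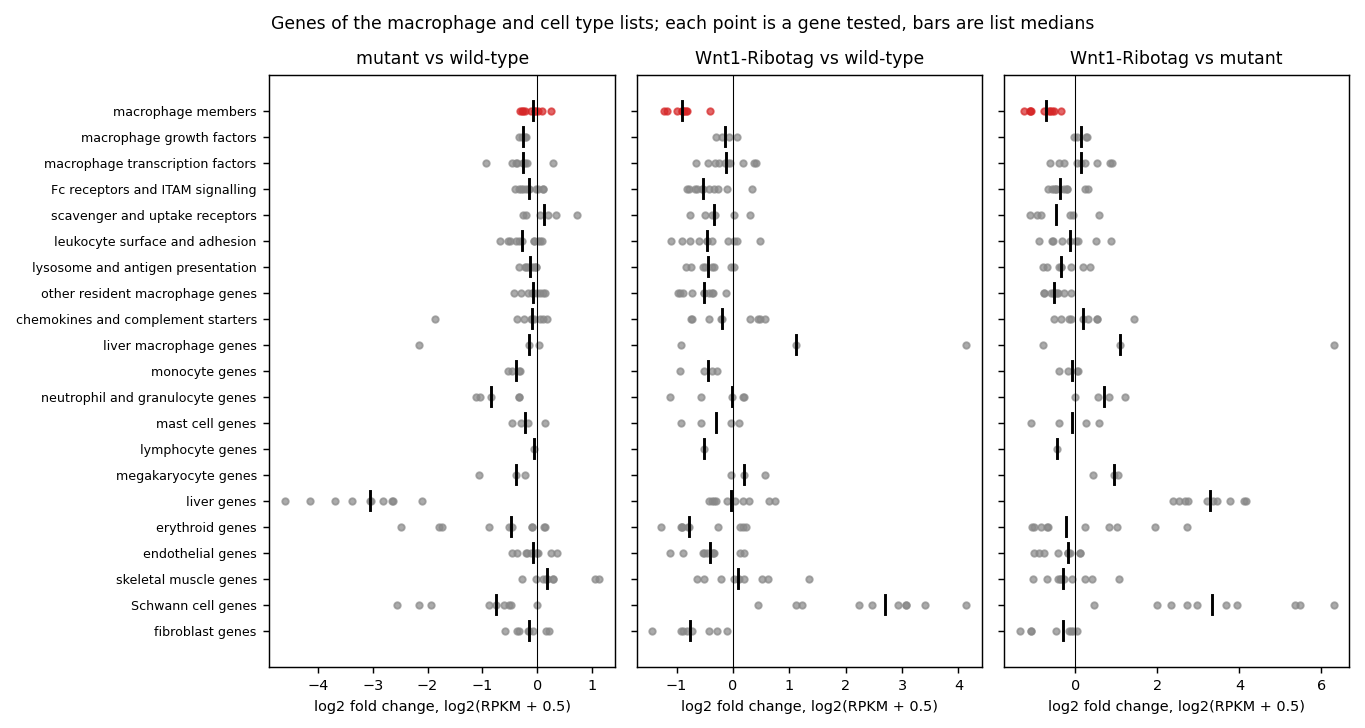
Log2 difference on the log2(RPKM + 0.5) scale (horizontal axes) of each tested gene of the 10 macrophage genes (red), the wider macrophage groups and the lists of other cell types (gray), with a bar at each list's median. In the Wnt1-Ribotag to WT panel the red points lie around their median of -0.90 and the Schwann cell genes around 2.69.

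Replicates were also compared gene by gene. Between the Wnt1-Ribotag libraries the 10 genes differed by 0.05 to 0.8 on the log2 scale (median 0.22), compared with 0 to 0.44 (median 0.24) in WT and 0.01 to 0.77 (median 0.3) in mutant muscle. Of the 68 wider genes averaging 0.5 RPKM or more, 20 (29.4%) differed in RPKM at least by a factor of 2 between the Wnt1-Ribotag libraries, compared with 17.7% of all 14320 genes at that level. In each whole-muscle group 1 of the 68 did (C3 in WT, Ccl3 in mutant), where 2.36% and 3.07% of all genes did. Examples chosen after their values were seen are Cd14, the lipopolysaccharide co-receptor gene, at 0.147 and 1.49 RPKM, and Btk, a kinase gene of B cells and myeloid cells, at 0.191 and 1.19 RPKM. Msr1 and Cd48 had no reads in Wnt1-Ribotag 1 and were at 0.916 and 0.614 RPKM in Wnt1-Ribotag 2. Among all 14320 genes, 164 had no reads in Wnt1-Ribotag 1 and 89 had none in Wnt1-Ribotag 2, against 2 to 11 in whole-muscle libraries, and none of the 10 macrophage genes was among them.

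Genes whose pattern over the 6 libraries was most like the mean of the 10 macrophage genes were listed by the root mean square difference of centered log2(RPKM + 0.5) values. The mean pattern was 0.39 and 0.27 in WT, 0.07 and 0.40 in mutant and -0.56 and -0.58 in Wnt1-Ribotag libraries. The nearest of 14310 genes compared were Gbp2 (0.0343), Eno1 (0.0624), Gm16379 (0.0625), G6pd2 (0.064), Mcm5 (0.0661), 9930111J21Rik2 (0.0704), Gm15927 (0.0709), Hmox1 (0.0738), Mif (0.082) and Vwa5a (0.0864). The median over all genes compared was 0.476, and the 10 macrophage genes themselves were at 0.126 (Fcgr1) to 0.275 (Adgre1). Hmox1, heme oxygenase, an enzyme of macrophages that take up red cells and of other stressed cells, was at 23.5 and 21.0 RPKM in WT, 16.4 and 24.6 RPKM in mutant, and 11.8 and 11.0 RPKM in Wnt1-Ribotag libraries. Eno1 and Mif are expressed in most cells, so that with 6 libraries this pattern was not particular to macrophage genes.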

How the data were processed

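The authors sequenced oligo-dT-selected RNA and deposited 1 table of RPKM values per library, in which a flag marks genes at a floor value. The submitters' processing notes name STAR and mm9, and the program that made the RPKM values is not given in the sources used here. The deposited tables held 23076 entries each, 3 of them without a value, and 21583 of the remaining 23073 Ensembl identifiers matched GENCODE M21 symbols. Positions are those of GRCm38 from that annotation, since the files hold no coordinates. Depth was computed from the floor values of 223 microRNA genes.

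Groups and replicate numbers came from the sample labels. Genes that averaged 0.5 RPKM or more in the 4 libraries of a comparison were tested by limma 3.58.1 in R 4.3.3 on log2(RPKM + 0.5), which understates changes of low genes, with eBayes, a mean-variance trend and Benjamini-Hochberg adjustment at 0.05. Genes are said to be called when the adjusted p passed. The 10 genes and the gene lists were chosen with earlier results of these data known. The genes named besides the 10 were the 3 with the highest mean RPKM of each wider list, Csf1, Il34, Spi1, Ptprc and Fcer1g, any called gene of those lists, and the 10 most similar patterns. Genes outside this rule were named as checks of labels, read sharing or other cell types (Sox10, Erbb3, Lyz1 and the liver macrophage genes) or after their values were seen (Cd14, Btk, Msr1, Cd48, C3, Ccl3 and Runx1). Aif1, Apoe and C1s of the wider lists matched no symbol and were not analysed here. Tested on simulated data, the same steps recovered 87% of 2-fold changes for mutant against WT (14021 genes run). They recovered 31.3% for Wnt1-Ribotag against WT (14389) and 18.4% for Wnt1-Ribotag against mutant (14277). The changed genes averaged at least 1 RPKM, and noise was the average of genes of similar level, without the differences in spread between genes. In the real mutant to WT data, limma called 3 of 10 liver genes, whose log2 differences were -4.6 to -2.11. Recovery in the real data may thus be lower than in the simulation. Python 3.11.15, numpy 2.4.6, pandas 2.3.3 and matplotlib 3.10.9 were used for tables and figures. Alternatives changed the pseudocount (0.1 or 1), the filter (none, or a mean of at least 1), the scaling, the trend and the libraries fitted.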

Additional observations from a re-analysis of the deposited data

How the results depend on the processing

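With 2 libraries a group, 1 library decides many calls. In mutant against WT, limma called 24 genes, 0 with no filter on low values, 0 with all 6 libraries in the fit, and 10 to 106 when 1 library was left out, and none of the 10 macrophage genes under any alternative. The median of the 10 then ran from -0.27 to 0.12. Directions were not stable near 0: Adgre1 and C1qc were at 0.06 and 0.07 under median-ratio scaling and at 0.10 and 0.02 under quantile normalization. With 1 library left out in turn, values ran across 0 for Adgre1 (-0.23 to 0.15), C1qa (-0.04 to 0.21), C1qc (-0.17 to 0.09), Lyz2 (-0.27 to 0.31) and Tyrobp (-0.51 to 0.26).

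In Wnt1-Ribotag against WT, 1 gene was called, 0 with no filter, 2 under median-ratio scaling, 138 with all 6 libraries in the fit and 26 to 5965 with 1 library left out. Of the 10 genes, 0 were called, 1 (C1qc) with all 6 libraries and 0 to 10 with 1 left out. In Wnt1-Ribotag against mutant, 171 genes were called, 112 with no filter, 81 under quantile normalization, 692 with all 6 libraries in the fit and 112 to 3672 with 1 left out. Of the 10 genes, 0 were called, 3 (C1qc, Mrc1 and Lyz2) with all 6 libraries, and 0 to 5 with 1 left out. Their median of -0.71 then ran from -0.96 to -0.58. In a fit with all 6 libraries, WT, mutant and Wnt1-Ribotag share 1 estimate of spread.

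A lone library was assumed to vary like the other group. The counts of genes without overlap cannot fall when a library is left out, so that this alternative, added after the data were seen, does not test them. No alternative reversed a direction in either Wnt1-Ribotag comparison (120 and 130 values). Mutant and Wnt1-Ribotag libraries share the numbers 1 and 2, and the labels do not say that same-numbered libraries belong together. With the number as a replicate block 842 genes and 3 of the 10 (C1qc, Mrc1 and Lyz2) were called, and deviations of same-numbered libraries correlated at 0.169. No paired analysis was possible for comparisons with WT because its numbers, 5 and 6, occur in no other group, and the labels do not tell which WT library the study set beside which mutant library.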
